A study of Drosophila melanogaster with 4 samples.

Results

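The Snail family of Drosophila melanogaster is represented on chromosome arm 2L by escargot (esg), worniu (wor) and snail (sna), which lie in that order along the arm. Monomethylation of lysine 4 of histone H3 (H3K4me1) was examined around these 3 genes in whole embryos by chromatin immunoprecipitation and sequencing (ChIP-seq). The members are the H3K4me1-enriched regions on 2L that overlap the span of each gene plus 20 kb on each side, which is called the window of that gene. Replicate 1 had 7 such regions of 7601 in all, replicate 2 had 8 of 7401, and the list that the authors made for both libraries combined had 16 of 8219. The ChIP group held 2 libraries from wild-type Oregon-R embryos of 14 to 16 h, precipitated with antibody ab8895 from a batch labelled new lot 2, and 2 input libraries of genomic DNA from the same strain and stage were not analysed here. No other genotype, stage or treatment was compared. Whether the replicates are separate collections of embryos is not stated in the labels, and the spread between them may be technical.

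The 3 genes encode zinc finger transcription factors that mainly repress their targets. Snail represses ectodermal genes in the early ventral embryo and is needed for mesoderm invagination. Escargot maintains imaginal cells and intestinal stem cells and acts in the tracheal branches, and Worniu is expressed in neural stem cells (neuroblasts). In the embryonic nervous system the 3 factors act redundantly in the asymmetric division of neuroblasts. H3K4me1 is placed on nucleosomes at enhancers and on both sides of active promoters, and it is often low at the promoter itself where trimethylation of the same residue is high. Whole embryos mix all tissues, so the share of cells that carry the mark and its level in each cell cannot be told apart.

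All 3 genes carried H3K4me1-enriched regions in both replicates. In each window the strongest region lay over the gene, and in the replicate lists the flanking sequence was poor in regions. Of esg, 100% of the span was covered in replicate 1 and in replicate 2. Of sna, 100% was covered in replicate 1 and 98.0% in replicate 2. Of wor, 59.5% was covered in replicate 1 and 66.5% in replicate 2. Averaged over the replicate lists, the covered share was 100% ± 0 for esg, 99.0% ± 1.40 for sna and 63.0% ± 4.98 for wor (SD, n = 2). The wor value lay below the other two by more than the spread between replicates, while esg and sna differed by less than that spread. The combined list covered 100% of esg, 100% of sna and 87.4% of wor.

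The genes are short, at 2273 bp for esg, 2284 bp for wor and 1668 bp for sna, so a single region can span each of them. Among 2652 protein-coding genes of 2L, the median covered share, averaged over the replicates, was 26.0%. At least 50% of the span was covered in both replicates in 3 of the 3 family genes, against 37.9% of the protein-coding genes of 2L. A region overlapped the span in both replicates in 3 of 3, against 56.8% of those genes. Both ends of the span lay in regions in both replicates for 1 of the 3, esg, against 25.0% of those genes. With 3 genes and 2 libraries of a single group, these counts are a description and no test was made.

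**Figure D1:**
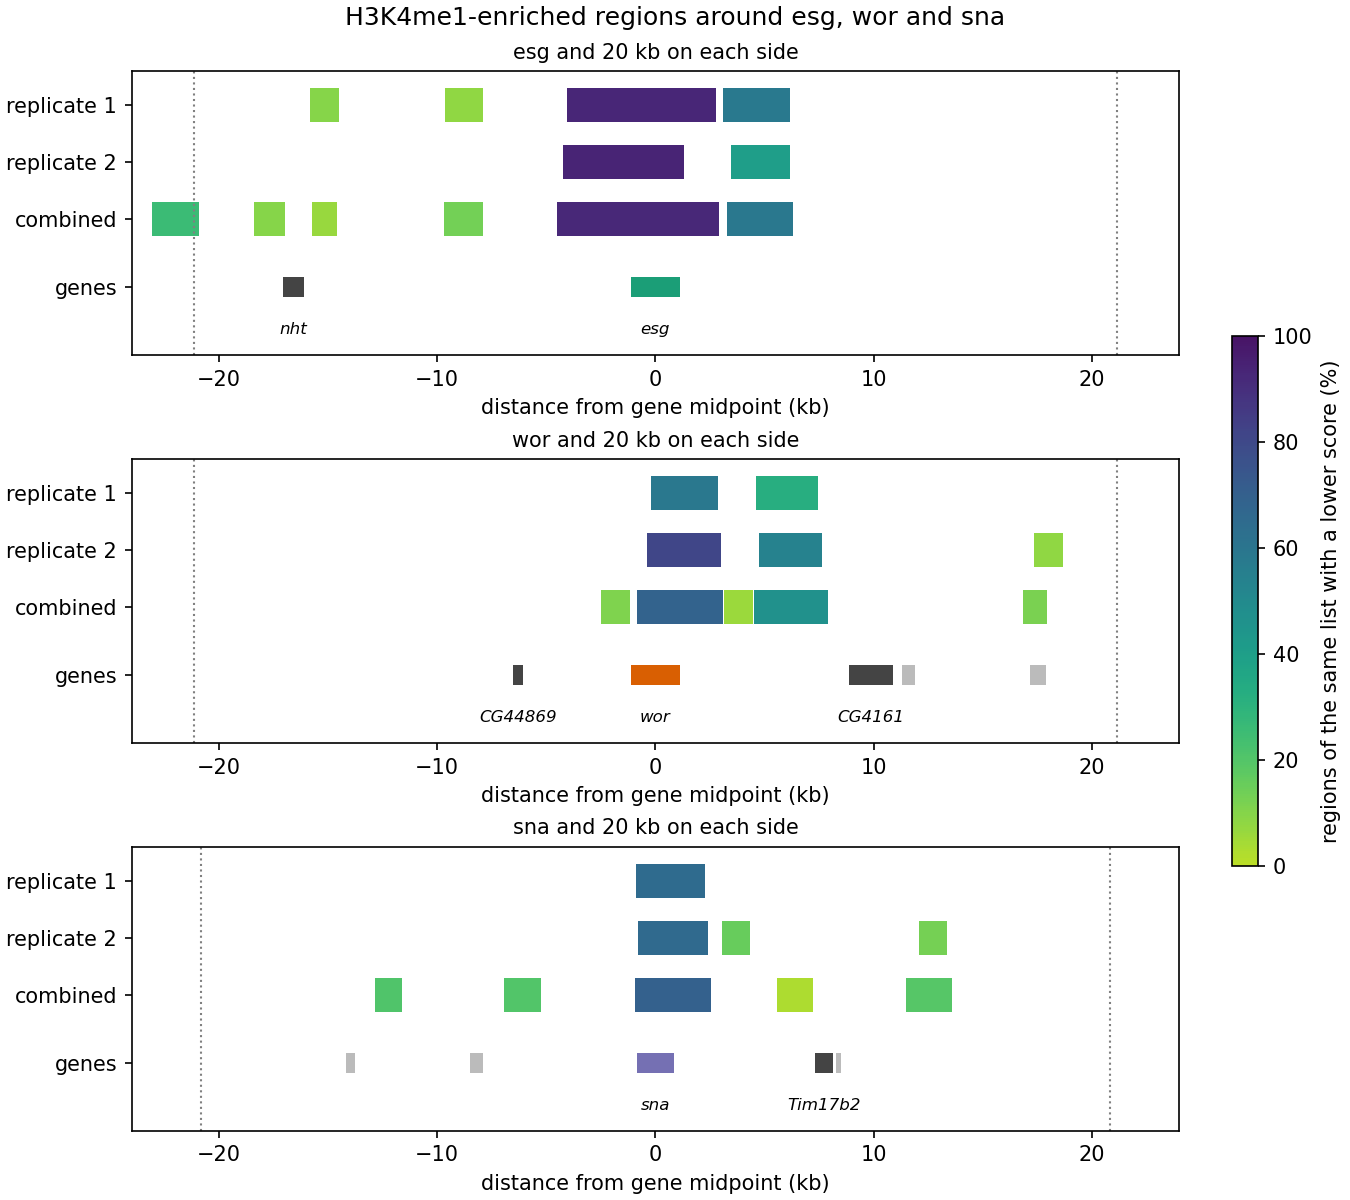
Enriched regions of replicate 1, replicate 2 and the combined list in the windows of esg, wor and sna, by distance from the gene midpoint in kb, with position along the arm increasing to the right. Boxes are regions, coloured by the percentage of regions of the same list that have a lower score, the lowest row shows genes (dark grey, other protein-coding genes; light grey, long non-coding RNA genes), and dotted lines mark the window limits; in every list the region over the gene is the darkest of its window.

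The strongest and widest of these regions lay over esg. In replicate 1 it ran from 15330928 to 15337798 on 2L (6871 bp, FlyBase release 5, as are all positions given here). In replicate 2 it ran from 15330781 to 15336295 (5515 bp). The authors gave each region a score on a scale that they do not state, so scores are read here by their rank within a list. The region over esg scored 1.38 in replicate 1, where 93.2% of all regions had a lower score, and 1.39 in replicate 2, where 94.0% did. In the combined list it spanned 15330489 to 15337935 (7447 bp), with a score of 1.27 that exceeded 92.8% of the list.

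The region over esg reached farther beyond the lower end of the gene than beyond the upper end. Lower and upper refer here to position along the arm, because the gene table used gives no strand and does not show at which end transcription starts. The region extended 2938 bp beyond the lower end in replicate 1 and 3085 bp in replicate 2. Beyond the upper end it extended 1660 bp in replicate 1 but 157 bp in replicate 2. A separate region followed on the upper side in both replicates, at 15338110 to 15341183 in replicate 1 (score 0.885, above 58.1% of the list) and at 15338446 to 15341155 in replicate 2 (score 0.732, above 40.2%). The gap between the region over the gene and this one was thus wider in replicate 2 than in replicate 1.

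Over wor, both replicates placed a region that began inside the gene and ran past its upper end. It lay at 15424223 to 15427322 in replicate 1 (3100 bp) and at 15424062 to 15427464 in replicate 2 (3403 bp). Its score was 0.893 in replicate 1, above 58.8% of that list, and 1.16 in replicate 2, above 81.4%. Of the 3 genes, wor showed the largest difference in rank between the replicates. The lower end of wor lay outside regions in all 3 lists and the upper end inside a region in all 3. In the combined list the region over wor started at 15423584, and a short region at 15421941 to 15423267 ended 29 bp before the gene. The lower end of wor therefore fell between these 2 combined regions, and the short region overlapped no region of either replicate.

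A further region lay on the upper side of wor in both replicates. It spanned 15429033 to 15431878 in replicate 1 (score 0.623, above 32.1% of the list) and 15429203 to 15432083 in replicate 2 (score 0.862, above 53.9%). It started 3452 bp from the gene in replicate 1 and 3622 bp from it in replicate 2. Both regions at wor therefore ranked higher in replicate 2 than in replicate 1.

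Over sna, a region fitted the lower end of the gene closely and ran past its upper end. It lay at 15476523 to 15479691 in replicate 1 (3169 bp) and at 15476626 to 15479829 in replicate 2 (3204 bp). In replicate 1 its lower limit was 70 bp outside the gene, whereas in replicate 2 it was inside the gene. Beyond the upper end it extended 1431 bp in replicate 1 and 1569 bp in replicate 2. The score was 0.965 in replicate 1, above 65.3% of the list, and 0.983 in replicate 2, above 65.8%. These ranks differed less between replicates than those of wor. Replicate 1 had no other region in the sna window.

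Compared with other marked genes of 2L, esg stood high and sna lay below the middle. Among protein-coding genes of 2L that a region overlapped, the highest score over esg exceeded that of 89.6% of the genes in replicate 1 and 89.9% in replicate 2. For sna these values were 39.1% and 39.8%. For wor they were 31.5% in replicate 1 and 65.5% in replicate 2, so the place of wor depended on the replicate. Longer genes can overlap more regions and so have more chances of a high score, and no correction for length was made.

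**Figure D2:**
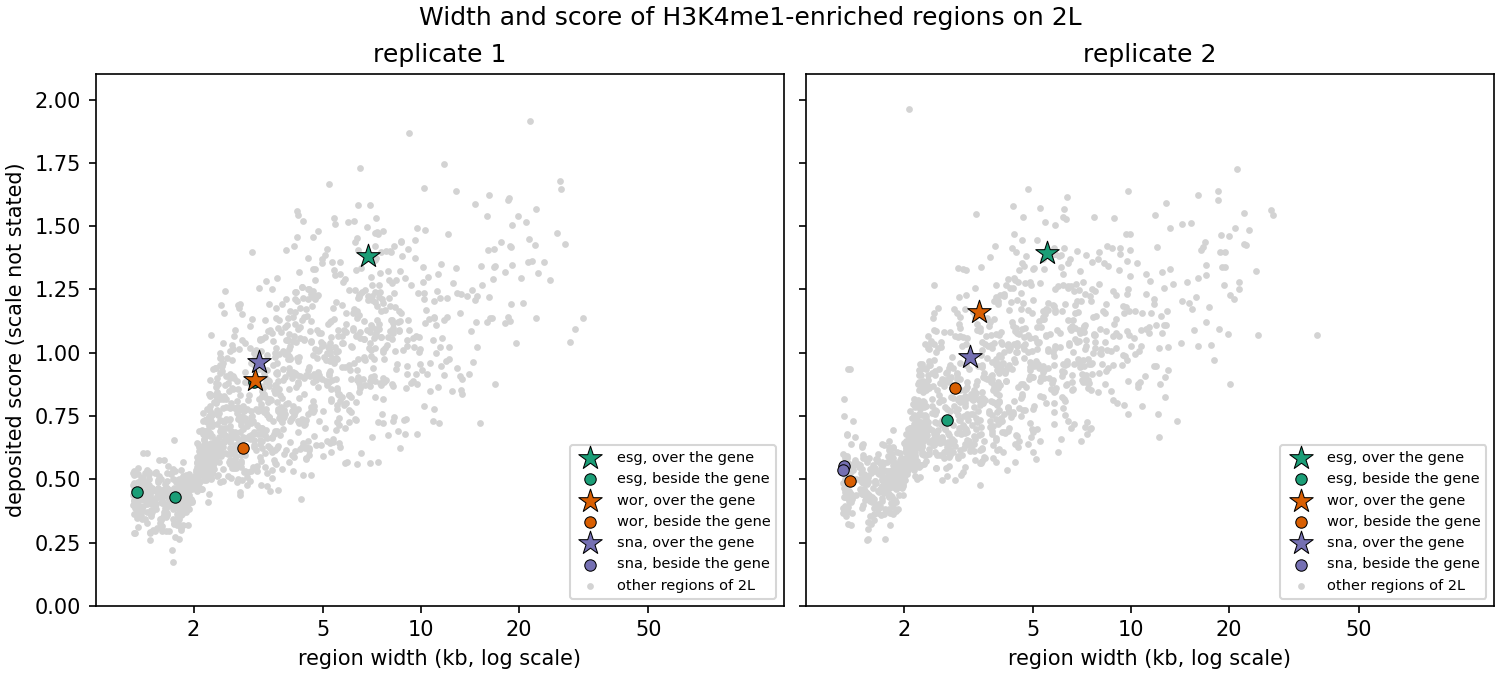
Width (kb, log scale) and deposited score of the enriched regions on 2L in replicate 1 (left) and replicate 2 (right). Stars are regions over esg, wor or sna, circles are other regions in their windows and grey points are the remaining regions of 2L; the regions over the genes score 0.893 to 1.38 in replicate 1 and 0.983 to 1.39 in replicate 2, above the regions beside them.

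Regions beside the genes were weaker. In replicate 1 the 3 regions over the genes scored 0.893 to 1.38 and the 4 beside them 0.428 to 0.885. In replicate 2 the 3 over the genes scored 0.983 to 1.39 and the 5 beside them 0.492 to 0.862. In the combined list the 3 over the genes scored 0.893 to 1.27 and the 13 beside them 0.248 to 0.759. The scores over the genes and beside them did not overlap in any of the 3 lists, which share the same 2 libraries. The same comparison was not made for other genes of 2L, so this separation is not shown to be particular to the family. The regions over the genes were also wider, at 3100 to 6871 bp against 1340 to 3074 bp in replicate 1 and at 3204 to 5515 bp against 1301 to 2881 bp in replicate 2.

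The replicates differed in some of the weaker regions beside the genes. Of the regions in the 3 windows, 5 of 7 in replicate 1 overlapped a region of replicate 2, against 86.5% of all replicate 1 regions on 2L. Of those in replicate 2, 5 of 8 overlapped a region of replicate 1, against 95.4% on 2L. The regions over the 3 genes and the upper neighbours at esg and wor made up these 5 pairs. Replicate 1 alone had regions on the lower side of esg, from 15319183 to 15320522 with a score of 0.449 and from 15325340 to 15327096 with 0.428. Replicate 2 alone had a region on the upper side of wor at 15441766 to 15443132 (score 0.492) and 2 on the upper side of sna. Those near sna spanned 15480469 to 15481777 (score 0.553) and 15489493 to 15490793 (score 0.536). Each of these 5 regions was at most 1757 bp wide and scored below the median of 2L in its list, which was 0.754 in replicate 1 and 0.779 in replicate 2. Shared regions beside the genes also fell below that median, at 0.623 beside wor in replicate 1 and 0.732 beside esg in replicate 2.

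Within the combined list, 5 of the 16 regions overlapped both replicates, against 72.1% of combined regions on 2L. A further 2 overlapped replicate 1 only, 2 overlapped replicate 2 only and 7 overlapped neither. The 7 scored from 0.248 to 0.407. They lay on the lower side of esg (15311949 to 15314070 and 15316613 to 15318031), on either side of wor (the region named above and 15427566 to 15428931), and around sna (3 regions, named below with its neighbours). Of the 5 regions that a single replicate listed, the one at 15480469 to 15481777 in replicate 2 was the only one without a partner in the combined list. In base pairs, the replicates shared 62.8% of the sequence that either covered in the 3 windows, against 83.3% on 2L as a whole. By gene the shared part was 73.9% at wor, 61.2% at esg and 51.8% at sna.

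In the replicate lists the covered share was lower beyond 5 kb of each gene than within it. Averaged over the replicates, 67.8% ± 12.0 of the sequence within 5 kb of esg was covered, counting both sides, and 9.09% ± 12.6 from 5 to 10 kb and 3.35% ± 4.74 from 10 to 20 kb (SD, n = 2). At wor the corresponding values were 32.8% ± 0.198, 14.0% ± 1.45 and 3.42% ± 4.83. At sna they were 21.9% ± 9.74, 0% and 3.25% ± 4.60. Over the protein-coding genes of 2L the mean covered share changed little with distance, from 38.1% within 5 kb to 34.1% from 5 to 10 kb and 32.7% from 10 to 20 kb. That mean includes genes without a region over their span. Genes with a covered span were not taken alone, so the fall is not shown to be particular to the family. From 10 to 20 kb, all 3 family genes lay below that mean in both replicates. The combined list held more weak regions and gave a slower decline, with 80.4%, 19.7% and 13.9% at these distances for esg and 62.7%, 17.8% and 5.39% for wor. At sna it was 26.9% within 5 kb, 24.8% from 5 to 10 kb and 16.8% from 10 to 20 kb, so the combined list showed little fall up to 10 kb where the replicates had 0%. The mean over protein-coding genes of 2L in the combined list was 42.5%, 38.9% and 37.7%.

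In the replicate lists the flanks of wor and sna were also unequal. Within 5 kb on the upper side, 65.5% ± 0.396 was covered at wor and 43.1% ± 20.5 at sna. On the lower side, the same distance held 0% at wor and 0.700% ± 0.990 at sna (SD, n = 2). At esg both sides were marked, with 75.4% ± 26.0 on the upper side and 60.2% ± 2.08 on the lower side, a difference within the spread between replicates. From 5 to 20 kb on the lower side of wor and sna neither replicate had a region. In the combined list the lower side within 5 kb was covered to 26.5% at wor, against 98.8% on the upper side, and to 14.0% at sna, against 39.7% on the upper side. From 5 to 10 kb and from 10 to 20 kb on the lower side the combined list covered 21.7% and 12.5% at sna and 0% at both distances at wor.

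**Figure D3:**
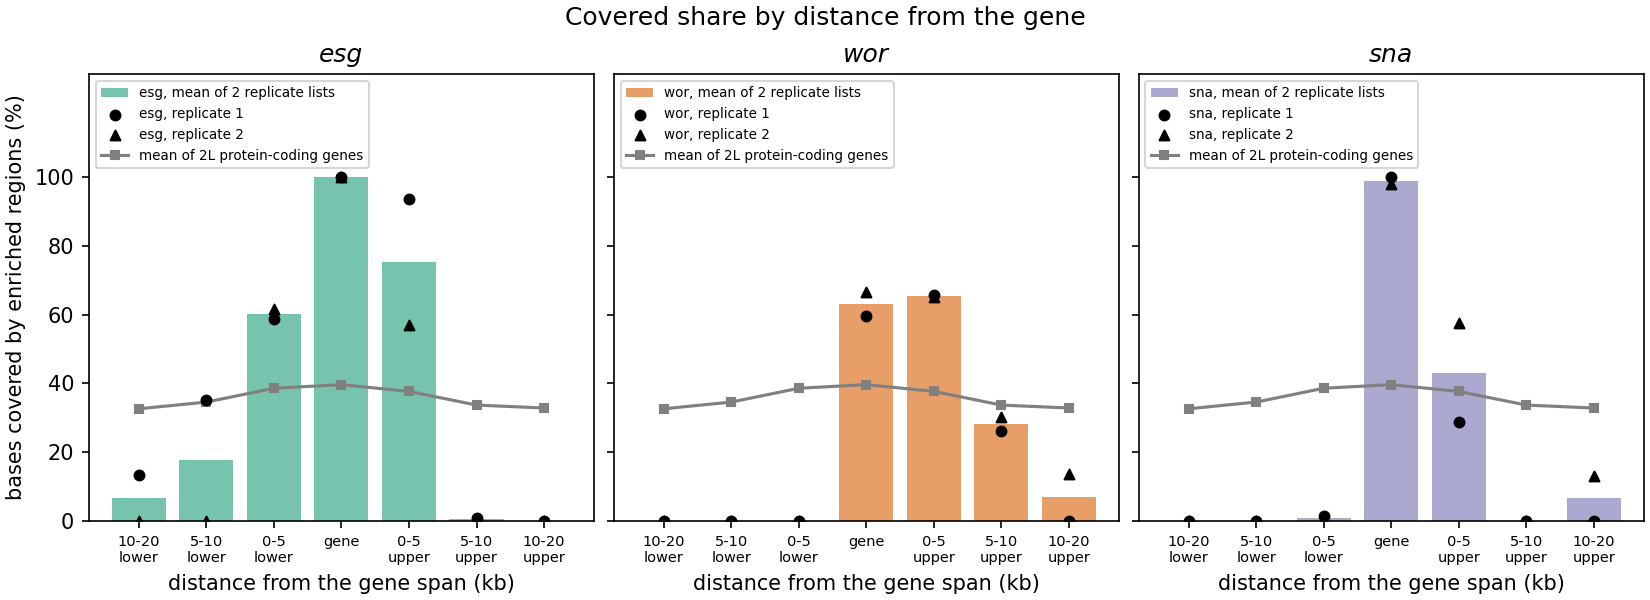
Share of bases covered by enriched regions (%) over the span of esg, wor and sna and at 0-5, 5-10 and 10-20 kb on the lower and upper side along the arm. Bars are the mean of 2 replicate lists, circles and triangles are replicates 1 and 2, and grey squares are the mean over protein-coding genes of 2L; coverage lies above the grey line over each gene and below it from 10 to 20 kb.

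Over whole windows the 3 genes lay below the median of 2L, whereas over their spans they lay above it. The covered share of the window was 30.9% in replicate 1 and 19.5% in replicate 2 for esg, 14.1% and 18.1% for wor, and 7.61% and 14.0% for sna. The means were 25.2% ± 8.06, 16.1% ± 2.85 and 10.8% ± 4.49 (SD, n = 2). The median window over protein-coding genes of 2L, measured in the same way, was covered to 34.8%, with a lower quartile of 13.9%. By these means, 37.5% of the genes had less coverage than esg, 27.0% less than wor and 21.3% less than sna. The replicate values of the 3 genes did not overlap but came close, with 19.5% as the lower esg value against 18.1% as the higher wor value, and 14.1% as the lower wor value against 14.0% as the higher sna value. Neighbours in this order are therefore hardly separated, and with 50 kb on each side the order changed, with 12.4% for sna, 10.4% for esg and 6.65% for wor. The combined list covered 35.6% of the esg window, 26.3% of the wor window and 24.5% of the sna window.

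Long stretches without regions separate the genes. Between esg and wor lie 87.2 kb. Of this interval, 5.43% was covered in replicate 1 and 3.29% in replicate 2, all of it beside esg. The stretch free of regions ran from 15341184 to 15424222 in replicate 1 (83.0 kb) and from 15341156 to 15424061 in replicate 2 (82.9 kb). It was the 45th longest of 1367 such stretches on 2L in replicate 1 and the 50th longest of 1313 in replicate 2, where the medians were 3377 bp and 3346 bp. In the combined list it measured 80.6 kb. It held 7 annotated genes, of which CG15258 and CG44869 are protein-coding and 5 are long non-coding RNA genes.

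Between wor and sna lie 51.0 kb, of which 9.13% was covered in replicate 1 and 12.0% in replicate 2. The longest free stretch there was 44.6 kb in replicate 1, from 15431879 to 15476522, and 33.5 kb in replicate 2, from 15443133 to 15476625. In the combined list it was 22.2 kb, because that list had 5 regions between the genes. Of these, 2 lay in the sna window, from 15464559 to 15465809 with a score of 0.378 and from 15470507 to 15472206 with 0.375, and neither overlapped a region of the replicates.

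Apart from the 3 family genes, the windows held 9 genes, and almost none was marked. The esg window held nht, which encodes a testis-specific TAF subunit. The wor window held CG44869, CG4161 and the long non-coding RNA genes CR44861 and CR44862. The sna window held Tim17b2, a gene for a mitochondrial import protein, and the long non-coding RNA genes CR44863, CR45353 and CR45293. In replicate 1, 0% of each of these 9 genes was covered. In replicate 2 the exception was CR44862, 16.0 kb from wor, of which 76.9% was covered by a region with a score of 0.492 that exceeded 7.96% of the list. The combined list also covered 100% of CR44862 and 8.23% of nht. For comparison, a region overlapped 56.8% of the protein-coding genes of 2L in both replicates. That share applies to nht, CG44869, CG4161 and Tim17b2 only. None was computed for long non-coding RNA genes, and length was not matched.

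A distal enhancer of sna that acts in the early embryo is known to lie at Tim17b2. Its limits were not at hand, so only the gene span was read, and whether a region covered the enhancer was not tested. In these older embryos no list had a region over Tim17b2, whose span lies 6.47 kb from sna. The combined list had a region that ended just short of it, at 15482977 to 15484652, with a score of 0.248 that exceeded 2.63% of that list, and neither replicate listed it. Just outside the sna window, at 20.8 kb from the gene in replicate 1 and 20.5 kb in replicate 2, the next region overlapped lace, a gene of sphingolipid synthesis. It lay at 15499051 to 15502868 in replicate 1 (score 0.995) and at 15498742 to 15502477 in replicate 2 (score 0.894). Its score was above that of the region over sna in replicate 1 and below it in replicate 2, and the 20 kb limit left it out.

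Further genes of 2L were read from 3 lists drawn up by general role, and whether each of them acts with the family was not tested. The lists are short and were chosen with earlier results of these data known, so counts from them are descriptions only. In the list of neuroblast division and polarity, 5 of 6 genes had at least 50% of their span covered in both replicates, against 37.9% of the protein-coding genes of 2L. These were l(2)gl, numb, brat, CycE and Cdk1, and the remaining gene, the Notch pathway factor Su(H), had 47.6% in replicate 1 and 50.1% in replicate 2. The region with the highest score over brat, a fate determinant of neuroblast daughters, exceeded 98.5% of replicate 1 and 99.0% of replicate 2. For numb, the Notch inhibitor that neuroblasts segregate to a daughter cell, these values were 94.1% and 95.1%. In both replicates brat and numb ranked highest of the 6, and they are also the longest, at 45943 bp and 26716 bp. The other genes ran from 63.6% for l(2)gl to 89.7% for CycE in replicate 1. In replicate 2 they ran from 48.6% for l(2)gl to 89.65% for Su(H).

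Among 9 transcription factors of the developing nervous system, 5 reached 50% of the span in both replicates, against 37.9% of the protein-coding genes of 2L. These were the forkhead genes slp1 and slp2, the T-box gene mid, the zinc finger gene odd and the LIM homeodomain gene tup. The POU genes nub and pdm2, the T-box gene H15 and dac did not. In each list the same region covered slp1 and slp2, so these genes are not separate observations in the counts. A region overlapped all 9 in both replicates, against 56.8% of the protein-coding genes of 2L. This was not particular to the transcription factors. The count was 6 of 6 for neuroblast division and polarity and 7 of 8 for dorsoventral patterning and adhesion. An overlap of 1 bp sufficed, and longer genes can overlap more regions. Among 8 genes of dorsoventral patterning and adhesion, 4 had at least 50% of the span covered in both replicates, again against 37.9%, and for lists of this size shares of 5 of 9 and 4 of 8 are not far from that background. The 4 were cact, dpp, tkv and Mad. The gene dl, whose product Dorsal activates sna, had 26.0% in replicate 1 and 22.8% in replicate 2. The N-cadherin gene CadN had 13.8% and 12.6%, its paralog CadN2 had 0% in both, and the adhesion gene ed had 33.5% and 24.7%.

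The windows of these transcription factors were marked more widely than those of wor and sna. The windows of wor and sna each had a lower covered share than any of these 9 genes in both replicates. The windows of slp1 and slp2 were covered to 90.5% and 92.3% in replicate 1 and to 84.4% and 79.6% in replicate 2, and that of odd to 80.1% and 76.7%. The lowest of the 9 were nub, with 22.3% in replicate 1 and 21.2% in replicate 2, and H15, with 30.6% and 19.7%. The values of the esg window, from 19.5% to 30.9%, overlapped those of nub, H15 and dac, which had 34.9% in replicate 1 and 30.1% in replicate 2. Wider marking than at wor and sna was not particular to the transcription factors. It also held in both replicates for every listed gene of neuroblast division and polarity. In the list of dorsoventral patterning and adhesion it held for all but CadN and CadN2. CadN2 had 4.32% in replicate 1 and 2.21% in replicate 2, and CadN had 13.0% and 10.7%. Windows of longer genes are longer. Windows of neighbouring genes such as slp1 and slp2 share sequence, and these differences were not tested.

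**Figure D4:**
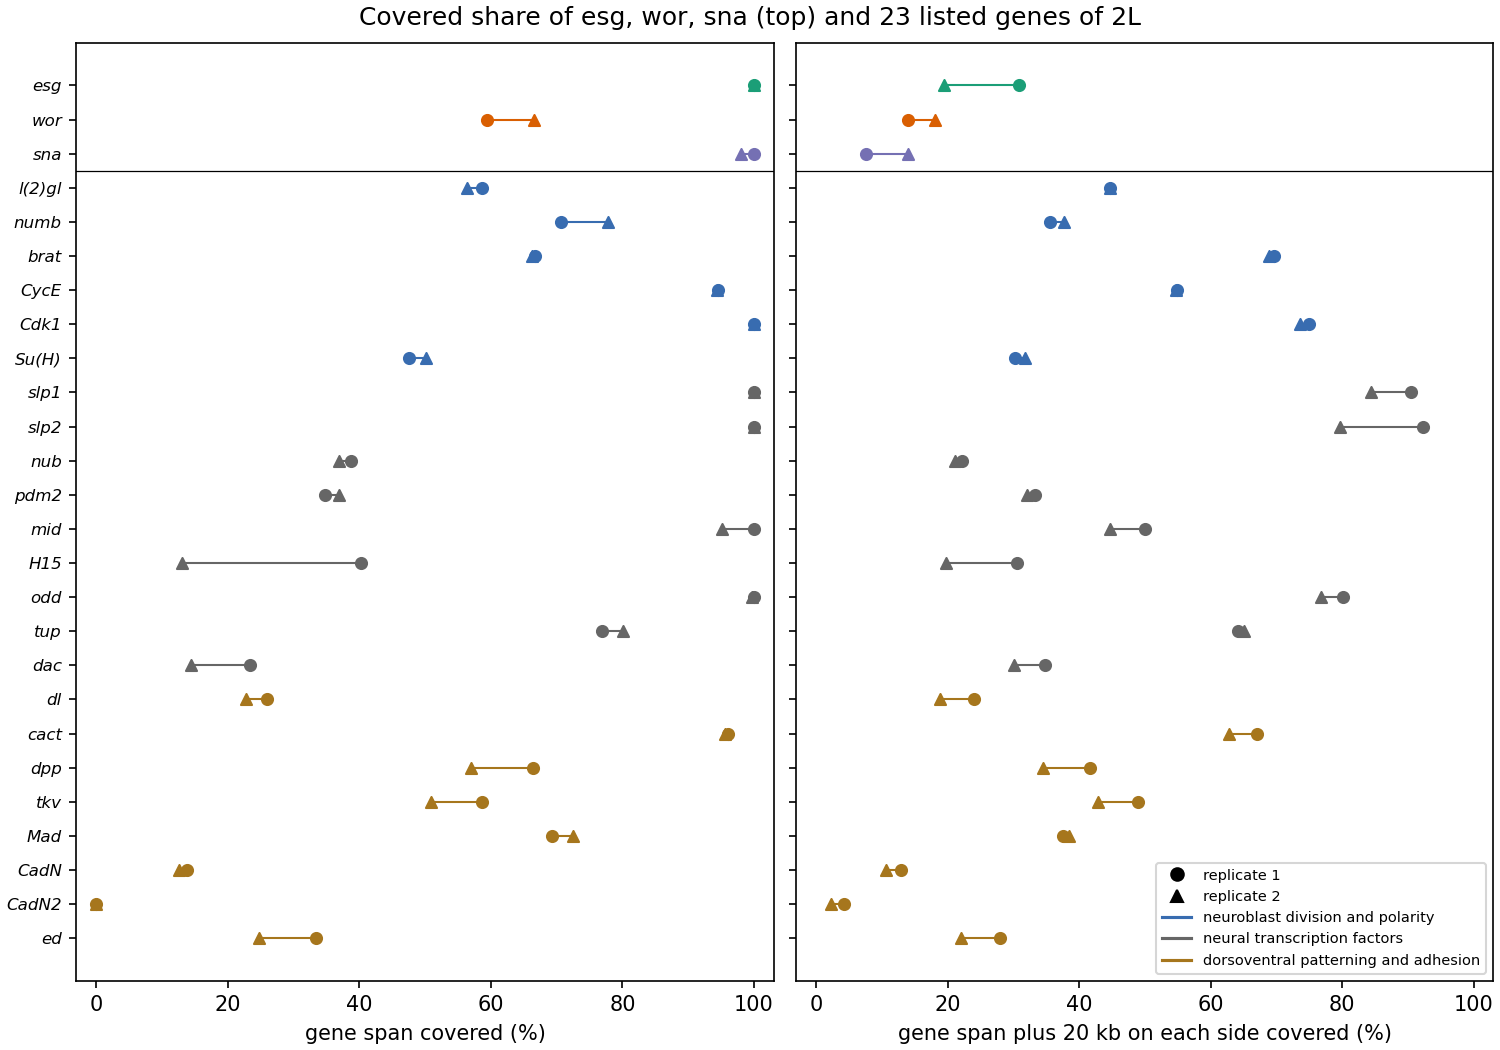
Share of the gene span (left) and of the span plus 20 kb on each side (right) covered by enriched regions, in percent, for esg, wor and sna above the line and for 23 listed genes of 2L below it. Circles are replicate 1 and triangles replicate 2; the family genes have at least 59.5% of the span covered but at most 30.9% of the window.

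The profile of covered share in 40 bins of 1 kb around the gene midpoint was compared with that of 2637 protein-coding genes of 2L more than 60 kb from the family, in whichever orientation came closer. The measure was the mean absolute difference between profiles averaged over the replicates, in percentage points. For sna the closest genes were Gr39b at 3.93, CG11050 at 5.28 and Fic at 5.31, against a median of 34.6 over all genes compared. For wor they were CG6583 at 7.72, CG13086 at 7.94 and CG42752 at 9.16, against a median of 33.8. For esg they were CG15269 at 8.40, IP3K1 at 9.90 and ND-B17.2 at 10.8, against a median of 37.8. Among the family genes themselves, wor and sna were closest at 14.1, followed by esg and sna at 18.8 and esg and wor at 24.4. These distances lie below the medians over all genes compared. However, the family windows hold few regions, and windows with few regions differ little by this measure wherever their regions lie. The share of genes closer to a member than the other members was not computed. The distances therefore do not show that the family profiles are alike. The closest genes were chosen for their likeness, so their smaller distances say nothing about the family. Bins of a gene share regions, and the genes compared can share regions as well.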

How the data were processed

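Per the labels, H3K4me1 was immunoprecipitated from formaldehyde-fixed whole embryos. The authors deposited 3 lists of enriched regions with a score of unstated scale; the build is FlyBase release 5 and positions count from 1, per the file headers. Bowtie 0.12.7 is named in the submitters' processing notes; the region caller, its threshold and the use of the input are not given in the sources at hand. Depth is unknown. The lists of the replicates bear a single experiment number, so which library each belongs to follows the repository's record. The 1 record named as depleted was left out.

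Gene positions came from the RefSeq table of release 6, whose positions on 2L were taken to equal those of release 5; none is printed. As a check, gene ends lay in combined regions in 45.0% of cases, and in 44.9% and 44.2% after a shift of 1 kb down or up, 40.6% and 39.2% at 5 kb, and 34.7% and 34.7% at 50 kb. A shift of 2 kb down or up gave 43.4% and 42.4%. The values at 1 kb are close to the value without a shift, so the check does not tell a shift of 1 kb from none. Distances up to about 1 kb therefore rest on the assumption of equal positions. Genes beyond base 23011544 of 2L were left out. The planned count of start sites became a count of both span ends, because the table has no strand.

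Overlap means at least 1 bp. Shares were computed in Python 3.11.15 with numpy 2.4.6, tested on simulated regions. Named genes are the 3 members, genes in their windows, 3 gene lists and the 3 closest profiles for each member; lace and the genes between the windows were added after their values were seen. Members and lists were chosen with earlier results of these data known.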

Additional observations from a re-analysis of the deposited data

How the results depend on the processing

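Of 44 values under alternative settings, 29 moved by less than the spread and 15 by more. With 2 replicates, leaving out 1 never moves the mean by more than the SD between them. The values without a replicate therefore fell among the 29 by construction and do not show stability. No setting turned the sign of a value, since shares and counts have none, but the order of the genes by window coverage changed with 50 kb on each side. The spread was the SD between replicates for covered shares, a factor of 1.5 for counts and an exact binomial interval over base pairs, which are not independent, for shared sequence. With 10 kb on each side the covered share of the window was 44.7% for esg, 27.4% for wor and 17.7% for sna, and with 50 kb it was 10.4% for esg, 6.65% for wor and 12.4% for sna, so that sna, the lowest with 20 kb, was the highest. The 50 kb window of sna takes in the region over lace and the regions at wor. In regions scoring at or above the median of their list it was 11.1% for wor, and in each of the 3 lists 4 regions were left in the windows. Shared sequence came to 73.8% with 10 kb, 65.5% with 50 kb and 58.6% in the upper scores. The share of genes with both span ends in a region, 27.1% ± 0.987 over the replicates, was 36.0% when a base within 500 bp of each end sufficed, 21.0% in the upper scores and 55.3% for at least 1 end. Leaving out either replicate gave 19.5% to 30.9% for the esg window, 14.1% to 18.1% for wor, 7.61% to 14.0% for sna, and 26.4% to 27.8% for span ends. Shifts of gene positions by 1 kb, the use of 1 end and leaving out a replicate for span ends were chosen after seeing the data. No paired analysis was possible because the input libraries had no region list and the ChIP libraries form a single group. Read depth is not known, so a weak region listed in a single replicate cannot be set against its number of reads.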
